A study of Mus musculus with 25 samples.

Results

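Inflammation-linked microRNA hairpins, mmu-mir-146a, mmu-mir-146b, mmu-mir-155, mmu-mir-132 and mmu-mir-212 (written below without the prefix for mouse), were followed in blood across adult life. They were taken by name from the deposited table and make up 5 of its 1193 precursors (hairpins). Total RNA came from blood of C57BL/6 males, mice of a common inbred strain, and was made into libraries with a TruSeq kit for small RNA. There were 5 libraries at each of 5 ages, 2, 9, 15, 24 and 30 months, 25 in all, and the labels name no treatment, transgene or sorting of cells for any of them. Each library bears a number of its own in its title, but the labels do not say that each came from a separate animal, so the p-values measure the spread between these samples only.

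MicroRNAs are short RNAs cut from hairpins that pair through their seed, the bases near their 5′ end, with messenger RNAs and lower their output. The mir-146 hairpins are switched on by NF-κB downstream of Toll-like receptors, and miR-146a represses the adaptors Irak1 and Traf6 of the same pathway, a negative feedback. The hairpin mir-155 is cut from the non-coding transcript Mir155hg of activated lymphocytes and myeloid cells, and miR-155 represses the inhibitors Socs1 and Ship1, so it is best known for promoting inflammatory responses. The hairpins mir-132 and mir-212 come from a shared transcript that responds to CREB, and miR-132 was described both in neurons and in innate immune cells.

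The mature sequences show which of the 5 hairpins can act on the same target sites, since the seed (bases 2 to 8, capitals) is shared within 2 pairs. The sequences are those of RefSeq for the mouse assembly GRCm38.p6, read 5′ to 3′, and all 5 members matched an entry.
miR-146a-5p: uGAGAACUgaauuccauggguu
miR-146b-5p: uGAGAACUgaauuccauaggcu
miR-155-5p: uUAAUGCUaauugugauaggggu
miR-132-3p: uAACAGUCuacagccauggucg
miR-212-3p: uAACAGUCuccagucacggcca
Counted from the 5′ end, miR-146b-5p differed from miR-146a-5p by G18A and U21C, with 17 identical bases before the first difference. The sequence of miR-212-3p differed from that of miR-132-3p by A10C, C14U, U17C, U20C and G22A, with 9 identical bases before the first. Among the matched hairpins of the table, no other mature arm carried any of these 3 seeds, and the seed of miR-155-5p was carried by mir-155 alone. The deposited table counts hairpins and does not separate their 2 arms, so the values below belong to the hairpin. How reads fitting several hairpins were shared is not given in the sources here, and for mir-146a and mir-146b, which differ at 2 of 22 bases of this arm, reads trimmed short of base 18 would fit both.

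The 5 hairpins lie on 3 chromosomes and in 4 places of the assembly GRCm38. On the minus strand, mir-146a lies at chr11:43374397-43374461, and no other gene of the GENCODE vM21 annotation lies across it on either strand. On the plus strand, mir-146b lies at chr19:46342762-46342870 in an intron of Mfsd13a. The hairpin mir-155 lies at chr16:84714140-84714204 on the plus strand in an exon of Mir155hg. On the plus strand of chromosome 11, mir-212 (chr11:75173388-75173478) and mir-132 (chr11:75173682-75173747) lie 203 bases apart in an intron of 1700016P03Rik. The 2 mir-146 hairpins therefore share a seed without sharing a locus, whereas mir-132 and mir-212 share both. The whole hairpins of mir-146a (65 bases) and mir-146b (109 bases), with the 5p arm in capitals, show the shared arm within precursors of different length.
mir-146a: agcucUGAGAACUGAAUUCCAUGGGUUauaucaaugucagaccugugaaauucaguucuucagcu
mir-146b: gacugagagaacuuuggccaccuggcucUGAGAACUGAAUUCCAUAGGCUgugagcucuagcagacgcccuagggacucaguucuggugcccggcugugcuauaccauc

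The smallest library had 4.884 M counts and the largest 24.25 M (median 15.39 M), so that 3 counts stood for 0.614 and 0.124 CPM. CPM are counts scaled to a common library size, with TMM factors (trimmed mean of M-values). Blood was the tissue the marker microRNAs showed: the 7 hairpins of the red cell list together held between 516795 and 960617 CPM, and mir-142a of leukocytes held between 5587 and 12387 CPM. Within the red cell list, mir-486a and mir-486b had near equal means (296074 and 295885 CPM), as had mir-16-1 and mir-16-2 (14052 and 14030 CPM). The sum may therefore count the same reads more than once and is not a red cell share. The liver mir-122 held at most 1.13 CPM, the 6 hairpins of the neuron list at most 12.2 CPM summed, and the 5 of the muscle list between 6.33 and 233.96 CPM summed. All 5 members passed the filter on low counts. The tests below were fitted on every precursor that passed it, with edgeR's quasi-likelihood test and Benjamini-Hochberg adjustment over all of them (threshold 0.05), and shares of all precursors below refer to those tested. In whole blood, fewer cells of a type and less RNA per cell cannot be told apart.

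All 5 hairpins were minor components of blood. The members had between 11 and 1454 counts in a library and together made up 0.00406% to 0.0207% of its counts. Averaged over the 25 libraries, mir-146b held 43.4 CPM (place 114 of the table), mir-146a 30.4 CPM (place 122), mir-132 18.4 CPM (place 139), mir-155 3.19 CPM (place 192) and mir-212 3.04 CPM (place 195). The mean levels of mir-155 and mir-212 differed by less than the spread of either hairpin between libraries, whereas mir-146b was above mir-146a in every library but replicate 3 of 30 months. Their ranges did not overlap at 2 months and overlapped at each later age. The mature arms are 22 or 23 bases long, so levels were compared without scaling by length, and how evenly the kit captures these sequences was not tested.

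The 5 hairpins tended to stand higher in old blood, but only some of the differences passed the test. All 5 fitted values were above 0 at 24 and at 30 against 2 months and in the trend, as were 49.4%, 45% and 47.3% of those of all precursors. In the linear trend over the 25 libraries, 4 of the 5 rose with age, mir-146a, mir-146b, mir-132 and mir-212. Over all precursors tested, 10.7% rose in this trend and 19.8% changed in either direction. At 30 against 2 months, mir-146b and mir-132 rose, that is 2 of 5, where 9.17% of all precursors rose and 14.2% changed in either direction. At 24 against 2 months only mir-146b rose, 1 of 5, where 7.69% of all precursors rose and 12.1% changed. The median change of the 5 members was 0.70 on the log2 scale at 30 against 2 months and 0.67 at 24 against 2 months, while the medians over all precursors were −0.04 and −0.004. At an unadjusted p under 0.05 stood all 5 members at 30 against 2 months and in the trend, and 4 of 5 at 24 against 2 months, where 26.6%, 32.5% and 24.6% of all precursors did. The scaling bears on all of these values, since library totals in place of TMM factors raised the median of all precursors to 0.20 at 30 against 2 months and to 0.36 at 24 against 2 months. With library totals the calls over all precursors split into 51 higher and 6 lower at 30 months (31 and 17 with TMM), 69 and 3 at 24 months (26 and 15), and 80 and 9 in the trend (36 and 31). With upper quartile factors they split into 21 and 3 at 24 months and 38 and 18 in the trend. No member changed direction in these 3 comparisons under any scaling.

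**Figure D1:**
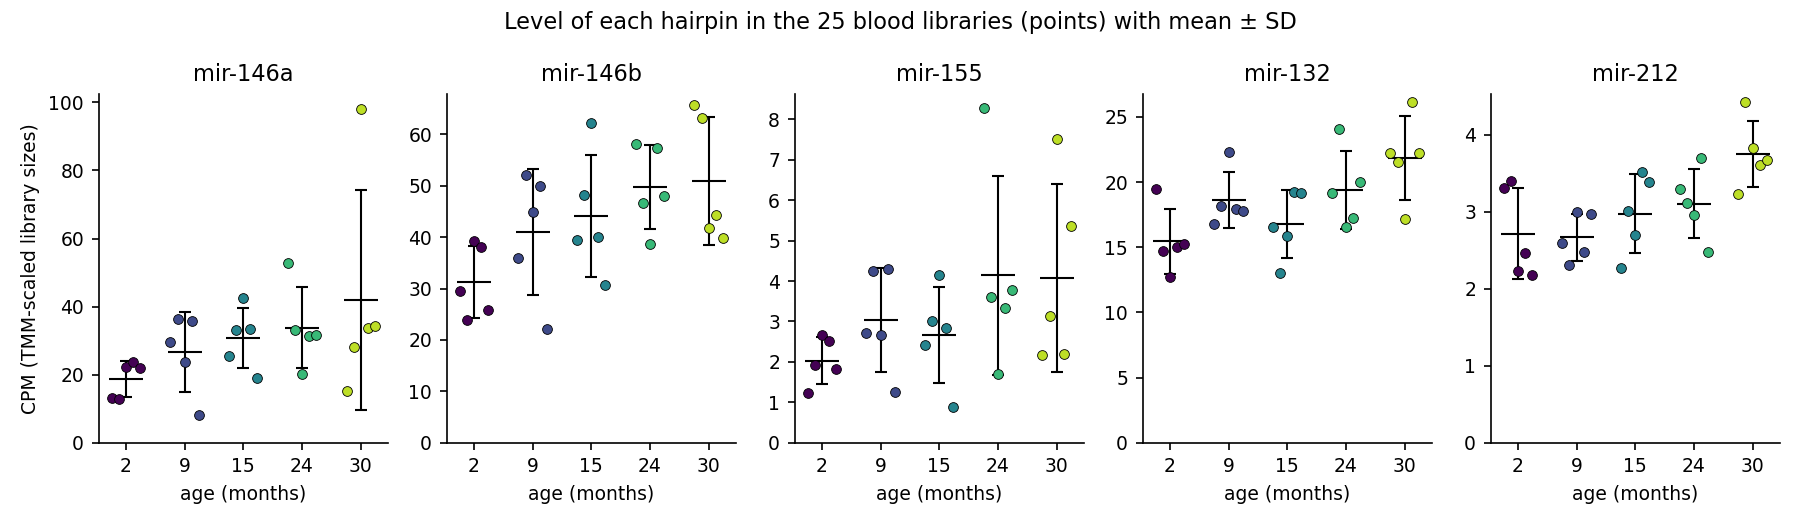
Level of the 5 hairpins in each of the 25 blood libraries, in CPM on a linear axis that starts at 0 in each panel, by age in months; points are libraries and bars the mean ± SD of 5 libraries. The 5 libraries at 30 months lie above all 5 at 2 months in the panel of mir-146b, and 1 library at 30 months stands at 98.1 CPM in the panel of mir-146a.

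The hairpin mir-146b, the more abundant of the mir-146 pair, separated the libraries of 2 and 30 months in CPM with TMM factors. At 2 months its 5 libraries held 29.5, 23.9, 39.3, 38.0 and 25.9 CPM in replicate order. At 30 months they held 65.8, 63.2, 41.8, 44.2 and 39.9 CPM. Every library at 30 months was above every library at 2 months, by a small margin (39.9 against 39.3 CPM). In CPM with TMM factors, mir-146b was the only 1 of the 5 members without overlap between these ages, where 10.7% of all precursors had none. Overlap depends on the scaling and was not computed with other factors, and mir-132 had a lower adjusted p at 30 months (0.0229 with edgeR). Its level rose by 0.70 (SE 0.22, adjusted p = 0.0370) on the log2 scale, with means of 31.3 ± 6.99 CPM in the young and 50.98 ± 12.4 CPM in the old libraries (SD, n = 5). At 24 months the libraries held 58.0, 46.7, 38.6, 57.3 and 48.0 CPM, and 4 of 5 were above the highest library at 2 months. This rise was 0.67 (SE 0.22, adjusted p = 0.0486). The ages between were wide and overlapped both ends: the libraries held 35.98, 52.1, 44.9, 49.99 and 22.2 CPM at 9 months and 39.5, 48.3, 62.2, 40.0 and 30.8 CPM at 15 months. The differences from 2 months were 0.39 (SE 0.22, adjusted p = 0.626) at 9 months and 0.50 (SE 0.22, adjusted p = 0.630) at 15 months. Over all ages the slope was 0.23 log2 units per 10 months (SE 0.07, adjusted p = 0.0195). At 30 months the call was lost without replicate 2 of 2 months and without replicate 1 or 2 of 30 months, with adjusted p up to 0.0655 and a change of at least 0.64. It was also lost without a filter (0.69, adjusted p = 0.0760 with edgeR). At 24 months it was lost without replicate 1, 2 or 5 of 2 months and without replicate 1, 4 or 5 of 24 months (adjusted p up to 0.0900), and with lane in the fit (0.71, adjusted p = 0.0549). The 24-month call was also lost without a filter (0.67, adjusted p = 0.0928 with edgeR), with relative log expression factors and without robust estimation.

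The hairpin mir-146a had the largest fitted difference at 30 months of the 5, and its 30-month libraries varied widely (coefficient of variation 77.2%). At 2 months the libraries held 13.2, 13.0, 22.3, 23.8 and 21.9 CPM. At 30 months they held 15.3, 28.2, 98.1, 33.6 and 34.2 CPM. A single old library was within the young range, 3 were somewhat above it, and replicate 3 stood far above all the others. The difference was 1.15 (SE 0.40, adjusted p = 0.0519), just outside the threshold, and without replicate 3 of 30 months it was 0.60 (adjusted p = 0.261). Leaving out 1 library at a time, it passed in 18 of 25 fits, most of which left out a library of an age not compared. At 9 months the libraries held 29.5, 36.5, 23.8, 35.9 and 8.03 CPM, at 15 months 25.6, 33.0, 42.4, 33.6 and 19.1 CPM, and at 24 months 52.8, 33.2, 20.3, 31.5 and 31.6 CPM. At both 15 and 24 months 4 of 5 libraries were above the highest library at 2 months. The differences from 2 months were 0.51 (SE 0.39, adjusted p = 0.811) at 9 months, 0.71 (SE 0.39, adjusted p = 0.783) at 15 months and 0.85 (SE 0.39, adjusted p = 0.173) at 24 months. Its mean went from 18.8 ± 5.31 CPM at 2 months through 26.7 ± 11.7, 30.7 ± 8.83 and 33.9 ± 11.8 CPM to 41.9 ± 32.3 CPM at 30 months (SD, n = 5 each). The slope of 0.37 per 10 months (SE 0.12, adjusted p = 0.0305) was the 8th highest of all precursors tested. That call was lost without replicate 3 of 30 months (0.24, adjusted p = 0.158), without replicate 1 or 2 of 2 months, with lane in the fit (adjusted p = 0.0765), with limma-voom (0.31, adjusted p = 0.0687) and without a filter (0.35, adjusted p = 0.122).

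The 2 mir-146 hairpins were also compared within each library, where no scaling enters. At 2 months the libraries held between 1.19 and 2.25 counts of mir-146b per count of mir-146a. At 30 months the lowest of all 25 libraries, 0.426 in replicate 3, stood beside the highest, 4.28 in replicate 1. Old libraries thus spread to both sides of the young ones. The mean log2 ratio was 0.76 ± 0.34 at 2 months and 0.53 ± 1.23 at 30 months (SD, n = 5), a difference of −0.23 (exact two-sided permutation test, p = 0.690; adjusted p = 0.929 over 8 ratio tests). At 9, 15 and 24 months the differences from 2 months were −0.02, −0.22 and −0.15, each also with an adjusted p of 0.929 in the exact test. A difference between the 2 hairpins in their change with age was not detectable, and the 30-month value went from −0.62 to 0.21 as single libraries were left out, the latter without replicate 3 of 30 months.

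The hairpin mir-155 stood higher at the 2 oldest ages in most libraries, without passing the test at any age. At 2 months the libraries held 1.23, 1.91, 2.67, 2.52 and 1.82 CPM. At 24 months they held 8.27, 3.61, 1.70, 3.34 and 3.79 CPM, and at 30 months 2.18, 3.13, 7.51, 2.20 and 5.36 CPM. Above the highest young library were 4 of 5 at 24 months and 3 of 5 at 30 months. The differences from 2 months were 1.04 (SE 0.42, adjusted p = 0.108) at 24 months and 0.97 (SE 0.43, adjusted p = 0.138) at 30 months. Each leaned on 1 library, with 0.65 at 24 months without its replicate 1 and 0.69 at 30 months without its replicate 3. At 9 months the libraries held 2.70, 4.25, 2.68, 4.31 and 1.25 CPM and at 15 months 2.43, 3.01, 4.15, 2.85 and 0.888 CPM, with differences of 0.59 (SE 0.42, adjusted p = 0.800) and 0.42 (SE 0.42, adjusted p = 0.896). The last of the 15-month values is the lowest of mir-155 in any library. The slope, 0.34 per 10 months (SE 0.13), was the 15th highest of all tested but had an adjusted p of 0.0580. It passed with library totals, upper quartile factors and DESeq2, and in 8 of 25 fits that left out a library. Counts of mir-155 are small, and counting alone would give a coefficient of variation of 15.4% to 18.1% within an age, against the 28.6% to 59.2% found.

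The hairpin mir-132 rose at 30 months and varied less within an age than mir-146a, mir-146b and mir-155 did, with a coefficient of variation of 11.5% to 15.96% (16.3% to 77.2% for those 3). At 2 months the libraries held 19.5, 14.7, 12.7, 15.1 and 15.3 CPM. At 30 months they held 22.2, 21.5, 17.1, 26.1 and 22.2 CPM. Of the old libraries 4 were above the highest young one, and replicate 3 lay below that library but above the young mean. The rise was 0.50 (SE 0.14, adjusted p = 0.0229), with means of 15.4 ± 2.47 CPM in the young and 21.8 ± 3.19 CPM in the old libraries (SD, n = 5). The call was lost without replicate 3 of 2 months (adjusted p = 0.0562), without replicate 4 of 30 months (0.0527) and with the 10 compared libraries fitted alone (0.0525). It was also lost without a filter (0.48, adjusted p = 0.211 with edgeR). At 9 months the libraries held 16.8, 18.2, 22.3, 17.9 and 17.8 CPM, at 15 months 16.6, 13.0, 15.9, 19.3 and 19.1 CPM, and at 24 months 19.1, 24.1, 16.5, 17.2 and 20.02 CPM. These ages lay between the young and the oldest in their means but not in order, with 18.6 ± 2.14 CPM at 9 months, 16.8 ± 2.60 CPM at 15 months and 19.4 ± 2.97 CPM at 24 months. The differences from 2 months were 0.27 (SE 0.14, adjusted p = 0.622), 0.12 (SE 0.14, adjusted p = 0.914) and 0.33 (SE 0.14, adjusted p = 0.144). The slope was 0.15 per 10 months (SE 0.05, adjusted p = 0.0218).

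Its neighbour mir-212 held between 2.18 and 4.42 CPM in the 25 libraries and was at its highest at 30 months. At 2 months the libraries held 3.30, 3.40, 2.23, 2.47 and 2.18 CPM. At 30 months they held 3.24, 4.42, 3.83, 3.603 and 3.67 CPM. All but replicate 1 of the old libraries were above the highest young one, a mean of 3.75 ± 0.43 against 2.72 ± 0.59 CPM (SD, n = 5). The difference of 0.46 (SE 0.16) had an adjusted p of 0.0547. It passed in 19 of 25 fits that left out a library, most of which left out a library of an age not compared. At 9 months the libraries held 2.59, 2.31, 3.001, 2.47 and 2.96 CPM, at 15 months 2.27, 3.01, 2.70, 3.51 and 3.39 CPM, and at 24 months 3.30, 3.11, 2.96, 3.69 and 2.48 CPM. They covered much the same range as the young libraries, with differences of −0.03 (SE 0.16, adjusted p = 0.963), 0.13 (SE 0.16, adjusted p = 0.917) and 0.18 (SE 0.16, adjusted p = 0.535). The slope of 0.16 per 10 months (SE 0.05) passed the test with an adjusted p of 0.0289. Within an age the coefficient of variation was 11.4% to 21.8%, where counting alone would give 14.1% to 16.5%, so the spread of mir-212 was near counting error.

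Set against each other within a library, mir-132 outnumbered mir-212 at every age. The libraries held between 4.31 and 8.09 counts of mir-132 per count of mir-212. The difference in log2 ratio of mir-212 to mir-132 from 2 months was −0.28 at 9 months (exact two-sided permutation test, p = 0.0556; adjusted p = 0.444 over the 8 ratio tests), 0.02 at 15 months, −0.12 at 24 months and −0.01 at 30 months (exact p = 0.929). These differences were within the spread between libraries, and a change in the proportion of the pair was not detectable.

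**Figure D2:**
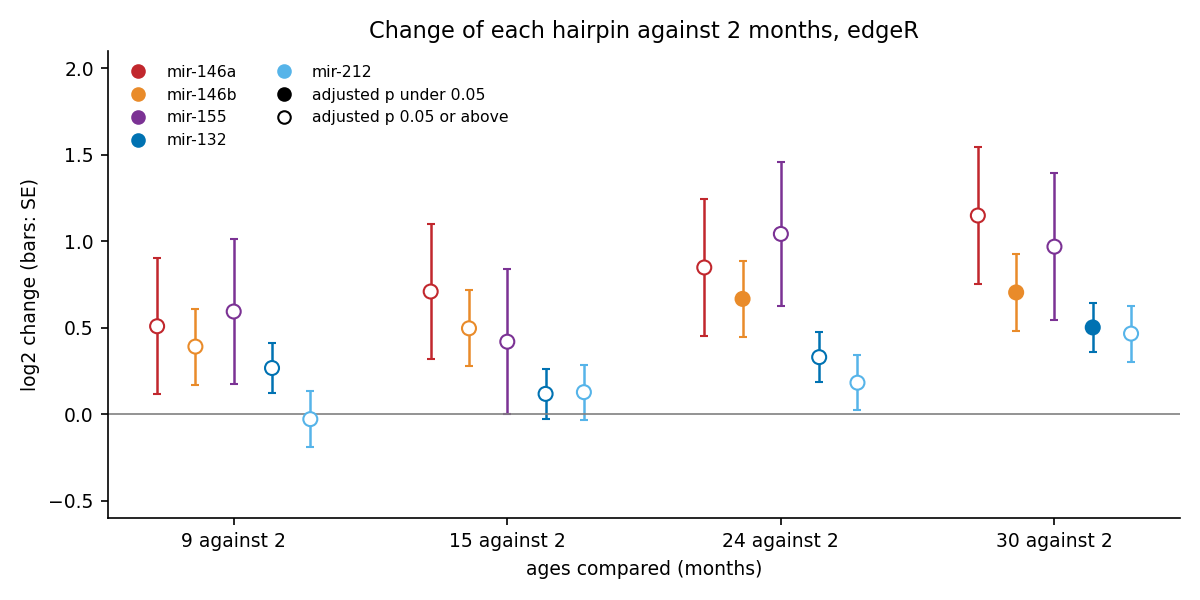
Log2 change of each of the 5 hairpins at 9, 15, 24 and 30 months against 2 months from the edgeR fit, with bars of 1 SE; filled points passed the adjusted threshold of 0.05. The filled points are mir-146b at 24 months (0.67) and mir-146b (0.70) and mir-132 (0.50) at 30 months, and mir-212 at 9 months (−0.03) is the only value below 0.

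No member changed between 9 and 2 months or between 15 and 2 months, where 2.07% and 1.48% of all precursors did. At an unadjusted p under 0.05 stood 0 members at 9 months (7.69% of all precursors) and 1, mir-146b, at 15 months (5.92%), and DESeq2 and limma-voom also called 0 at both. The 4 contrasts against 2 months and the trend share the 2-month libraries, and without these the slopes were lower for the mir-146 hairpins and mir-155. There, mir-146a had 0.30 per 10 months (adjusted p = 0.376), mir-146b 0.17 (adjusted p = 0.372) and mir-155 0.28 (adjusted p = 0.475). The slope of mir-132 was 0.15 (adjusted p = 0.201), and mir-212, with 0.23 (adjusted p = 0.0459), was the 1 member that passed. Over all precursors 9 of 329 passed in that fit, 6 higher and 3 lower. Between consecutive ages no member changed at 15 against 9, 24 against 15 or 30 against 24 months. The shares of all precursors were 0%, 2.07% and 0%, edgeR gave 0 members an unadjusted p under 0.05 in each (2.07%, 10.4% and 3.85% of all precursors), and DESeq2 and limma-voom called 0. The test for a difference between any of the 5 ages also called none of the 5, where 7.99% of all precursors passed, with 3 members (mir-132, mir-146b and mir-212) at an unadjusted p under 0.05 (20.4% of all precursors) and 0 called by DESeq2 and limma-voom.

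**Figure D3:**
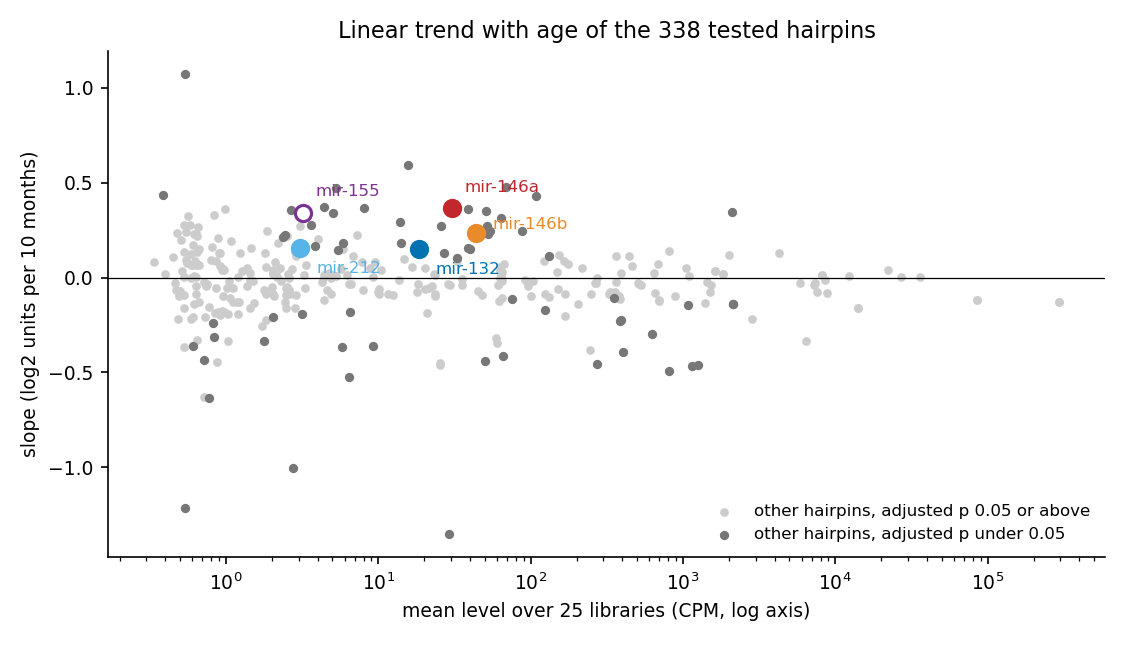
Slope of the linear trend in log2 units per 10 months against the mean level in CPM (log axis) for all tested hairpins, grey for all and marked for the 5 members. The 5 members lie above 0, between 0.15 for mir-132 and 0.37 for mir-146a, and their places from the highest slope are 8 (mir-146a), 15 (mir-155), 32 (mir-146b), 52 (mir-212) and 55 (mir-132).

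The libraries were spread over 6 sequencing lanes, of which lanes 5, 6, 7 and 8 held both 2 and 30 months. In each of these 4 lanes every member was higher at 30 than at 2 months. Each of the 4 lanes held 1 library of 2 months and 1 of 30 months (2 in lane 6), so single libraries were compared. They are the same libraries as in the contrast above, and the share of all precursors higher in all 4 lanes was not computed. The differences ran over the lanes from 0.43 to 0.89 for mir-146b, from 0.15 to 2.17 for mir-146a, from 0.20 to 2.05 for mir-155, from 0.17 to 0.83 for mir-132 and from 0.08 to 0.84 for mir-212. Lanes 3 and 4 held no library of 30 months and give no such value. The index sequences in the column names differ in every library and run nearly in the order of the ages, so index and age cannot be told apart. The 30-month libraries also had the lowest median total (10.4 M), although the shallowest library was of 24 months. With all libraries thinned to 1 depth, mir-146b and mir-132 again rose at 30 months, and mir-146a passed as well (1.26, adjusted p = 0.0459 with edgeR). In that fit 35 of 239 precursors changed, 23 of them higher. The trend of mir-212 no longer passed with thinned libraries (0.18 per 10 months, adjusted p = 0.0786).

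Between libraries of 1 age, the closest relation of 2 members was that of mir-146a and mir-155. After the mean of each age was removed, mir-146a and mir-155 were correlated over the 25 libraries (Pearson r = 0.85, Spearman rho = 0.86). Both permutation tests gave p = 1e-05, the smallest that 100000 resamples allow, and 1e-04 after adjustment over the 10 pairs of members. Without the 2 libraries farthest from the median of mir-146a (replicate 5 of 9 months and replicate 3 of 30 months) r was 0.82, and with lane also removed it was 0.87. High and low libraries of the 2 hairpins were often the same: replicate 1 of 24 months was the highest of its age in both, replicate 3 of 30 months the highest of its age, and replicate 5 the lowest of its age at both 9 and 15 months. For mir-146b and mir-155, r was 0.52 (permutation test, adjusted p = 0.0411) and rho 0.44 (adjusted p = 0.102), and without its 2 farthest libraries r was 0.37, so the relation rests in part on those libraries. For mir-146a and mir-146b, which share the seed, r was 0.42 and rho 0.44 (permutation test, adjusted p = 0.122 and 0.102), with 0.41 without the 2 farthest libraries and 0.53 (adjusted p = 0.0227) with lane removed. For mir-132 and mir-212, which share a transcript, r was 0.24 and rho 0.10 (adjusted p = 0.335 and 0.657 in the permutation test). The 6 pairs that cross from mir-146a, mir-146b and mir-155 to mir-132 and mir-212 had r from −0.34 to −0.11, and none passed. With lane removed, mir-155 and mir-132 had r = −0.49 and passed (permutation test, adjusted p = 0.0322; rho = −0.45, adjusted p = 0.0875). All 6 turned positive with library totals in place of TMM (0.17 to 0.29), so their sign depends on the scaling.

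**Figure D4:**
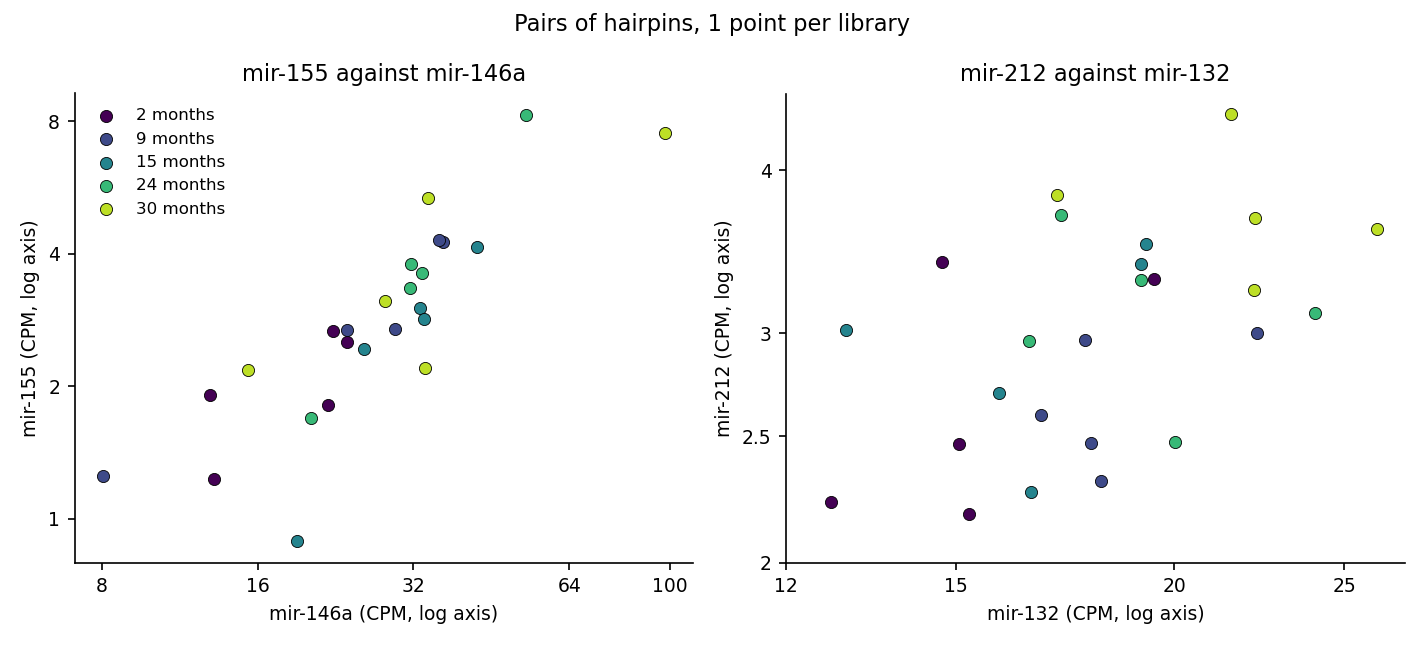
Level of mir-155 against mir-146a (left) and of mir-212 against mir-132 (right), in CPM on log axes, 1 point per library coloured by age. On the left the levels rise together through all ages (r = 0.85 after the age means), and on the right the points scatter (r = 0.24).

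Blood holds several kinds of cell, and microRNAs that mark some of them also changed between 2 and 30 months. The neutrophil and monocyte microRNA mir-223 rose by 1.44 (SE 0.17, adjusted p = 1.65e-06 with edgeR) at 30 against 2 months, with means of 58.2 ± 2.85 and 158 ± 44.1 CPM (SD, n = 5) in the young and old libraries. The pan-leukocyte mir-142a differed by 0.16 (SE 0.19, adjusted p = 0.656 with edgeR) and the lymphocyte mir-150 by −0.31 (SE 0.44, adjusted p = 0.713), neither past the threshold. Of the red cell list 1 of 7 hairpins fell and 0 rose, and its summed level ran from 772347 to 920255 CPM at 2 months and from 557444 to 824638 CPM at 30 months. That sum may count the same reads more than once. Of the platelet and endothelial list 2 of 3 fell, where 5.03% of all precursors did, with a sum of 12.3 to 17.3 CPM at 2 months and of 3.13 to 8.20 CPM at 30 months. Ratios of counts within a library set each member beside these 3, over 15 exact tests of 30 against 2 months. Relative to mir-223, mir-132 fell by 0.90 and mir-212 by 0.91 on the log2 scale, each without overlap of the libraries (exact two-sided permutation test, p = 0.00794, the smallest that 5 against 5 allow; adjusted p = 0.0397). The denominator mir-223 itself rose by 1.44, while the median change over all precursors was −0.04, so a fall in this ratio is not particular to these members. The shares of all precursors that changed or separated in such ratios were not computed. Relative to mir-150, mir-212 rose by 0.84 (exact p = 0.00794, adjusted p = 0.0397), also without overlap. These 3 were the ones past the threshold, and leaving out any 1 library of 2 months left 0 of 15 past it, while leaving out 1 of 30 months left 3 or 4. With 1 library fewer the smallest p that the exact test allows is unchanged, and the adjusted p of these 3 ratios reached at most 0.0794. Why the calls were lost only without a library of 2 months was not tested. These counts alone do not show which libraries the differences rest on. As single libraries were left out, the 3 differences ran from −0.96 to −0.78, from −1.04 to −0.80 and from 0.67 to 0.94, in the order given.

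The other 12 ratios kept the same signs without passing. Relative to mir-223, the differences were −0.48 for mir-146a, −0.70 for mir-146b and −0.52 for mir-155 (exact test, adjusted p from 0.0794 to 0.452). Relative to mir-150, they were 1.28 for mir-146a, 1.05 for mir-146b, 1.23 for mir-155 and 0.85 for mir-132 (adjusted p from 0.0595 to 0.0794 in the exact test). Relative to mir-142a, they were 0.77, 0.54, 0.72, 0.35 and 0.33 for mir-146a, mir-146b, mir-155, mir-132 and mir-212 (adjusted p from 0.0794 to 0.174 in the exact test). All 5 members were therefore lower at 30 months beside mir-223 and higher beside mir-150 and mir-142a in their mean ratios. How far the share of each cell type contributed to the change of a member was not tested.

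**Figure D5:**
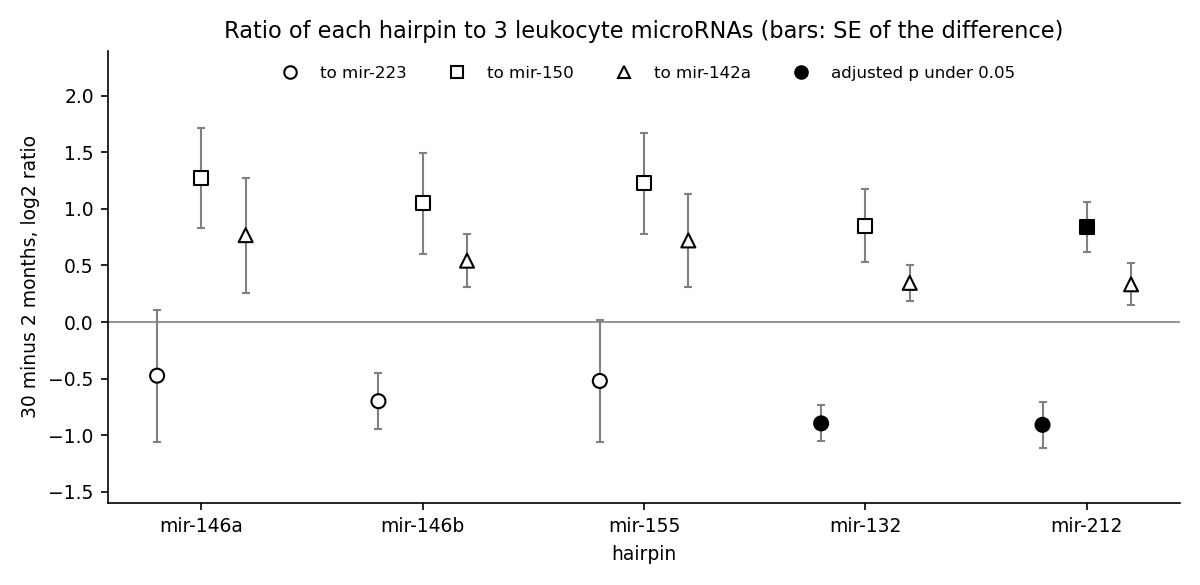
Difference between 30 and 2 months in the mean log2 ratio of each hairpin to mir-223, mir-150 and mir-142a within a library, with bars of the SE of the difference over 5 and 5 libraries; filled points passed the adjusted threshold. All points to mir-223 lie below 0 (−0.91 to −0.48) and all points to mir-150 and mir-142a above 0.

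Over the 25 libraries, mir-132 followed mir-223 with r = 0.70, which was 0.33 after the age means were removed, and the platelet and endothelial mir-126a with r = −0.65 (−0.37 after the age means). The red cell microRNA mir-451a ran opposite to mir-146a (r = −0.72, and −0.72 after the age means) and to mir-155 (r = −0.62 and −0.58). With mir-132 it had r = 0.07, and 0.54 after the age means. The pan-leukocyte mir-142a also ran opposite to mir-146a (r = −0.41 and −0.54), mir-155 (−0.44 and −0.54) and mir-146b (−0.28 and −0.43). With mir-142a, mir-132 had −0.06 and −0.18, and mir-212 had 0.29 and 0.36. These are descriptions over libraries, in which both hairpins of a pair share a depth and a scaling factor.

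The hairpins most like each member in log2 CPM over the 25 libraries were sought among the 151 or 152 others with a mean of at least 10 CPM. The members mir-155 and mir-212 lie below that mean, so neither could be listed for another member. With mir-146a, mir-155 had r = 0.85, above all 3 hairpins listed for mir-146a, and with mir-146b it had 0.62, level with the first listed for mir-146b. For mir-155 they were mir-146a (r = 0.85), mir-146b (0.62) and mir-1843a (0.61), so 2 of its 3 were members. For mir-146a they were mir-378a (0.60), mir-27b (0.60) and mir-146b (0.58), and for mir-146b they were mir-10a (0.62), mir-203 (0.60) and mir-146a (0.58). For mir-132 they were mir-128-2 (0.76) and mir-128-1 (0.75), which are copies of 1 microRNA and share reads, and mir-23a (0.73). For mir-212 they were mir-23b (0.68) and the copies mir-30c-1 (0.66) and mir-30c-2 (0.65). Of this pair only mir-132 could be listed for the other, and it was not among the 3 most like mir-212 (r = 0.49 for the pair).

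Of the other microRNAs tied to innate responses, a list of 14 hairpins held 12 that were tested. At 30 against 2 months 4 of the 12 rose and 0 fell, where 9.17% of all precursors rose. Its median was −0.12 and 4 of 12 values were above 0, beside a median of −0.04 and 45% above 0 over all precursors. Those 4 were mir-223, a brake on neutrophil activity (1.44, SE 0.17), mir-99b (0.95, SE 0.28, adjusted p = 0.0251 with edgeR), mir-125a (0.76, SE 0.25, adjusted p = 0.0426) and mir-222 (0.31, SE 0.10, adjusted p = 0.0426). The hairpins mir-99b and mir-125a belong to 1 cluster with let-7e and are not independent. The same 4 rose in the trend, by 0.43, 0.35, 0.27 and 0.11 per 10 months in that order. The hairpin mir-21a, raised in many inflammatory states, is far more abundant (5504 ± 1811 CPM at 30 months, SD, n = 5) and differed by −0.14 (SE 0.27, adjusted p = 0.779 with edgeR) at 30 against 2 months.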

How the data were processed

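The authors deposited 1 table of raw counts of reads per microRNA hairpin for 25 blood libraries, 5 at each of 5 ages, prepared with a TruSeq kit for small RNA, per the labels' protocols. Per the submitters' processing notes, SAMtools 1.3.1-9, Trimmomatic 0.36 and bcl2fastq 1.8.4 were used, in roles the notes leave out. What aligned and counted the reads, on which build and whether by strand, is not given in the sources here. Groups came from the age in the labels. Replicate numbers follow the order of the samples.

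The members and the lists of marker and innate-response microRNAs were chosen with earlier results of these data known. Counts were tested in 1 fit of all libraries with edgeR 4.0.16 in R 4.3.3 (quasi-likelihood F test), TMM factors, filterByExpr by age, robust dispersions and Benjamini-Hochberg adjustment over the 338 precursors kept. SE is the absolute log2 change divided by the root of F. Count ratios (0.5 added) and residual log2 CPM (prior count 2) were compared with two-sided permutation tests. The script was tested on simulated counts. Named hairpins are the members, for each the 3 with the highest r at a mean of at least 10 CPM, list members past the threshold, and mir-223, mir-150 and mir-142a. Other hairpins named (mir-451a, mir-486a, mir-486b, mir-16-1, mir-16-2, mir-126a, mir-122, mir-21a) were picked from the marker and innate-response lists after their values were seen. Alternatives were other scalings, filters and depths, DESeq2 1.42.0, limma-voom (limma 3.58.1), lane in the fit, the compared libraries alone and leaving out each library. Reads carry no molecular identifiers, and the floors given cover the error of counting alone.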

Additional observations from a re-analysis of the deposited data

Results flagged for a closer look

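Among 35 groups of 5 values that were checked (the 5 members and the 2 ratios at each age), 2 held a sample far from the others, and chance flags about 1 in 20 such groups. For mir-146a, replicate 3 of 30 months held 98.1 CPM, where the next library of that age held 34.2 CPM. The same library held the highest mir-155 of its age (7.51 CPM) and a mir-146b of 41.8 CPM, within the range of its age. For mir-132, replicate 3 of 9 months held 22.3 CPM, where the next library of that age held 18.2 CPM.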

How the results depend on the processing

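Counts of changed members moved with the processing while their direction against 2 months at 24 and 30 months and in the trend did not. At 24 against 2 months 1 member passed, and 4 did with library totals, 2 with the compared libraries alone, and 0 with relative log expression factors, without a filter (865 precursors tested), with lane in the fit or without robust estimation. At 30 against 2 months 2 passed, and 4 did with library totals, 1 with the compared libraries alone and 0 without a filter. In the trend 4 passed, with 0 without a filter and 1 without the 2-month libraries. With library totals 16 precursors passed at 24 against 15 months and 44 in the test of any age (7 and 27 with TMM). Of the members 1 and 2 did so, in that order. Leaving out 1 library gave 0 to 2 at 24 months, 1 to 4 at 30 months, 3 to 5 in the trend, 0 to 1 in the test of any age, and 0 to 4 of the 15 leukocyte ratios. Calls over all precursors moved as well. At 24 against 2 months they went from 41 to 72 with library totals and to 37 of 314 with the compared libraries alone. They were 43 with relative log expression factors, 24 without a filter, and 34 with lane in the fit or without robust estimation. At 30 months 48 became 57 with library totals, 30 of 289 with the compared libraries alone and 15 without a filter. In the trend they went from 67 to 39 without a filter. The cause of these moves was not tested. Without a filter the adjustment ran over 865 precursors, and the unadjusted p of members moved as well. At 30 against 2 months it went from 0.00183 to 0.0152 for mir-132 and from 0.00395 to 0.00235 for mir-146b (edgeR).

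Signs changed in comparisons that no member passed. For mir-212 at 9 against 2 months it was 0.095 with library totals and, unfiltered, 0.0013, and at 24 against 15 months −0.030 without a filter and −0.014 with thinned libraries. For mir-155 with thinned libraries it was 0.044 at 15 against 9 and 0.046 at 30 against 24 months. For mir-146b at 30 against 24 months it was −0.090 with library totals and −0.0053 with a mean of at least 10 CPM. Leaving out 1 library gave ranges across 0 at 15 against 9 months (mir-146a −0.016 to 0.36, mir-146b −0.043 to 0.21, mir-155 −0.35 to 0.036), at 24 against 15 months (mir-146a −0.071 to 0.28, mir-212 −0.031 to 0.12), at 30 against 24 months (mir-146a −0.27 to 0.52, mir-146b −0.063 to 0.13, mir-155 −0.38 to 0.38) and at 9 against 2 months (mir-212 −0.080 to 0.093). The ratio of mir-146b to mir-146a ran from −0.21 to 0.087 at 9 months and −0.62 to 0.21 at 30 months, and that of mir-212 to mir-132 from −0.075 to 0.12 at 15 months and −0.11 to 0.088 at 30 months. With library totals the residual correlations were 0.29 (mir-146a with mir-132), 0.29 (mir-146a with mir-212), 0.24 (mir-146b with mir-132), 0.20 (mir-146b with mir-212), 0.17 (mir-155 with mir-132) and 0.26 (mir-155 with mir-212). With lane removed, 4 of 10 pairs passed in place of 2, one of them negative (mir-155 with mir-132). The filter at 10 CPM removed mir-155 and mir-212. No paired analysis was possible because replicate numbers follow the order of the samples and pair nothing across ages. Lane, which some libraries of different ages share, was instead a term in a fit.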
